A study of Mus musculus with 6 samples.

Results

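Nfil3, Tef, Hlf, Bhlhe40, Bhlhe41, Rora and Ciart are 7 transcriptional regulators that are tied to the circadian clock without being its central loop. Probe sets that the platform annotation gives to exactly 1 gene were used, and where a gene had several, 1 was selected by its mean level on all 6 arrays, the higher being kept. All 7 genes were found, on 8 probe sets, out of 19938 genes and 35556 probe sets in all. Ciart alone had 2 probe sets, and the one kept had a mean log2 level of 2.97 over the 6 arrays, against 2.63 for the one left out. The 7 genes were picked with earlier results of these arrays known, so the number that fell describes these genes and supports nothing beyond them.

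RNA was measured on 6 whole-transcript mouse arrays. Of these, 3 held satellite cells, the resident stem cells of skeletal muscle, that had been grown for 5 days on collagen and laminin in F10 medium with 20% donor horse serum and daily additions of bFGF at 5 ng/ml. The other 3 held satellite cells taken straight from the sort. Both groups came from resting hind-limb, abdominal and triceps muscle of C57BL/6J mice aged 2 months, with no genetic change named, sorted for beta-1 integrin and CXCR4 and against CD45, CD31, CD11b, Ter119 and Sca1. The design text names 3 mice but no array's mouse, so p-values measure the spread between these arrays, which may be technical. The sources used here do not give the hour of day at which cells were collected, and each array is a single point in any daily cycle.

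The mammalian clock is a feedback loop in which CLOCK and its partner BMAL1 (the product of Arntl) switch on genes through E-box elements, and the Per and Cry products switch that activity off. Around this loop stand further regulators. Tef and Hlf, with Dbp, are PAR bZIP activators that bind D-box elements, and Nfil3 (also called E4BP4) is a bZIP repressor of the same elements. Bhlhe40 and Bhlhe41 (Dec1 and Dec2) are paralogous basic helix-loop-helix repressors that bind E-boxes. Rora encodes a nuclear receptor that activates through ROR elements, where the Nr1d1 and Nr1d2 products repress, and Ciart (Chrono) encodes a repressor of CLOCK and BMAL1. In muscle cells Bhlhe40 and Bhlhe41 are also known to act on myogenic differentiation, and Bhlhe40 is known as a gene induced by low oxygen.

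The E-box, D-box and ROR half-site, elements through which these proteins act, were looked for in the promoters of the 7 genes. The cAMP response element and the AP-1 site were searched as further motifs. The matching stretches are shown because they tell which members carry such a motif in a short window at the start site. RefSeq windows of 250 bases before to 50 bases after a start site, on GRCm38.p6, were found for 6 of the 7 members, with 2 windows for Tef. An E-box was searched as CACGTG, a D-box as TTATGTAA or TTACGTAA, a ROR half-site as AGGTCA, a cAMP response element as TGACGTCA and an AP-1 site as TGAGTCA, each on both strands. Ciart had 3 E-boxes, starting at -116, -58 and -44 from the start site. Of all 32851 windows of this length, 7.15% held at least 1 E-box and 0.0883% held 3 or more. Tef had 1 E-box in each of its windows, at -127 and -138, and Bhlhe41 had 1 at -153. Hlf had a cAMP response element at -9, a motif in 1.79% of windows. Nfil3 had a ROR half-site on the reverse strand at -12, a motif in 16.3% of windows, and the Rora window held none of the 5 motifs. The windows of Nfil3 and Rora and the second window of Tef lay wholly inside the annotated gene. Their start sites are therefore internal and not at the outer end of the gene. No member window held a D-box or an AP-1 site, which were in 1.06% and 5.2% of all windows, and a missing match says only that these letters were not in this window. Sequences run 5′ to 3′ on the strand of the gene, with the motif in capitals and only bases outside the annotated gene for the longer ones.
Ciart, chr3:95882258-95882478, minus strand: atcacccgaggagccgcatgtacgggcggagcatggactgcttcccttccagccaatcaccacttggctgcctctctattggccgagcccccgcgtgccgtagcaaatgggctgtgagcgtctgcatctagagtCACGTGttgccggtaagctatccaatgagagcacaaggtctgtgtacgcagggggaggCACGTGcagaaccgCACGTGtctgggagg
Bhlhe41, chr6:145865421-145865670, minus strand: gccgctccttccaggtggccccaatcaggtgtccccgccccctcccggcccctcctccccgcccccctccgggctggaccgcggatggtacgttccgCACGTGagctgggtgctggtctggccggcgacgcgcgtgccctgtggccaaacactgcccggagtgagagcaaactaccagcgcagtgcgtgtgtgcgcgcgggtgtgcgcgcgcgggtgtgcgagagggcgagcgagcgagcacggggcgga
Tef, first window, chr15:81802423-81802672, plus strand: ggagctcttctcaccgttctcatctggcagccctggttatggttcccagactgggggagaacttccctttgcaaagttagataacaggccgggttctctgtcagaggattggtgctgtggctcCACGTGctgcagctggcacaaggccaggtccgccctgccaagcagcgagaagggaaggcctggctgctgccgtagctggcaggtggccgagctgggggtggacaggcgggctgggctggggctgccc
Tef, second window, chr15:81811264-81811293, plus strand: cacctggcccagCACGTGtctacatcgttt
Hlf, chr11:90390918-90391167, minus strand: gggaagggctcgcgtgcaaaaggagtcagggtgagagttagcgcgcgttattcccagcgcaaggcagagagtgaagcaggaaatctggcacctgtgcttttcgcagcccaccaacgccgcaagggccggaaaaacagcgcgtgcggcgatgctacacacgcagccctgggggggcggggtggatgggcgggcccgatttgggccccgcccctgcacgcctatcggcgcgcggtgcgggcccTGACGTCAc
Nfil3, chr13:52981034-52981063, minus strand, with capitals on the reverse complement of the half-site: ggcgctcggaacTGACCTactaacacacat

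All levels below are RMA log2 values, and each fold change is the cultured mean minus the fresh mean on that scale. Background was the level below which 95% of 1194 receptor genes of smell (olfactory and vomeronasal) fell on that array, and lay between 3.23 and 3.40 on the cultured arrays and between 3.17 and 3.23 on the fresh ones. Of the 7 members, 3 fell in the cultured cells (Nfil3, Rora and Bhlhe40), none rose and 4 did not pass (limma, Benjamini-Hochberg adjusted p of 0.05 over all genes). Over all 19938 genes 4.32% passed, 3.37% lower and 0.953% higher in culture. Of the genes that passed, 22.1% were higher in culture on the deposited scale, against 43.8% after quantile normalization and 32.9% after cyclic loess. The groups did not overlap for 3 of the 7 members, all lower in culture, against 23.2% of all genes without overlap and 10.3% without overlap and lower in culture. The median fold change was -0.18 over the members and 0.04 over all genes. In whole-population RNA a smaller share of cells with a transcript and less of it per cell cannot be told apart.

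**Figure D1:**
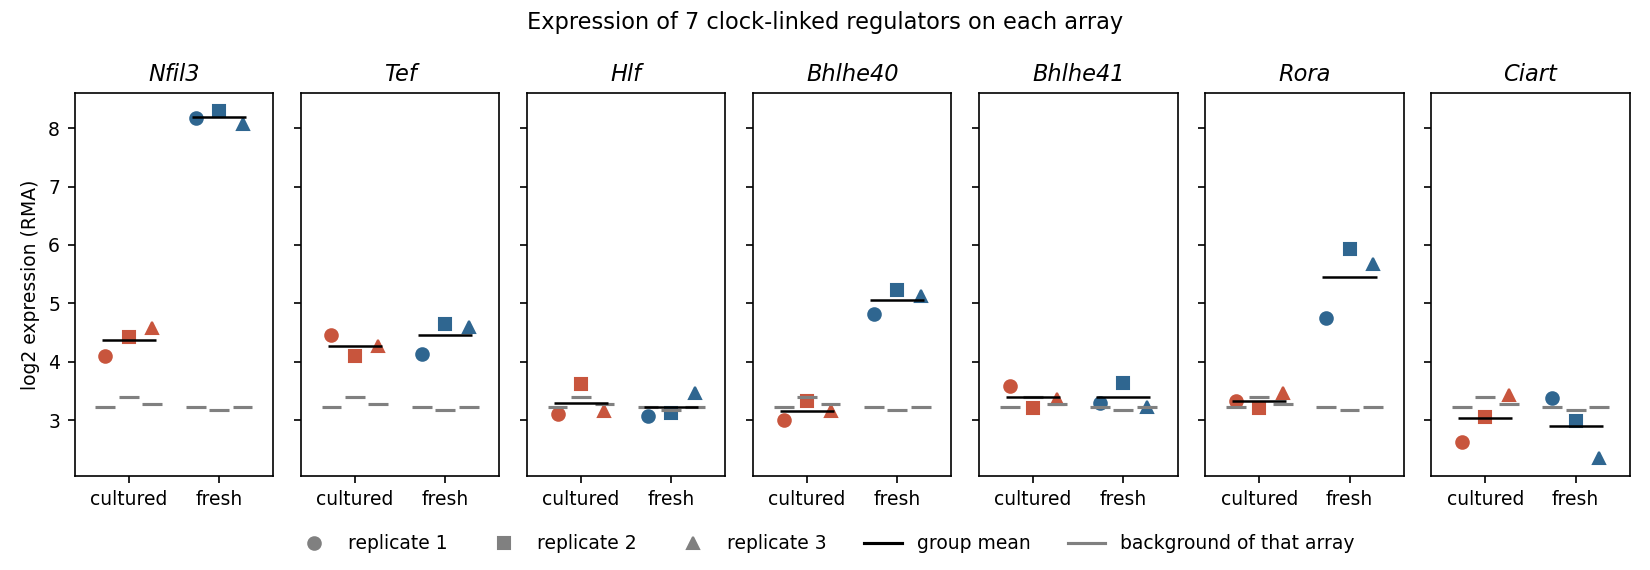
Log2 expression (vertical axis) of each of the 7 members on the 3 cultured and 3 fresh arrays; points are arrays, black bars group means and short grey bars the background of each array. Nfil3, Bhlhe40 and Rora lay lower on all 3 cultured arrays than on any fresh array, while the 2 groups overlapped for Tef, Hlf, Bhlhe41 and Ciart.

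Nfil3 (chr13:52967209-52982878, GRCm38.p6, as for the other positions), the bZIP repressor, was at 4.10, 4.42 and 4.58 on cultured replicates 1, 2 and 3, against 8.18, 8.30 and 8.07 on fresh replicates 1, 2 and 3. Every cultured array lay far below every fresh array and still above its own background. The log2 fold change of Nfil3 was -3.82 ± 0.16 (SE), 14.1-fold lower (adjusted p 2.01e-05, limma). Only 0.261% of all genes had a lower fold change, and it ranked 18 of all genes by p. The 450 genes with a fresh mean of 7 to 9, where Nfil3 lies, were also lower in culture by their medians. They were chosen by fresh level alone, which by itself favours lower values in culture, so no conclusion is drawn from them. Their median differences from the fresh mean were -0.39, -1.68 and -1.29 on cultured replicates 1, 2 and 3.

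Tef (chr15:81802673-81826863), which encodes a PAR bZIP activator, was at 4.45, 4.10 and 4.27 on the cultured arrays, against 4.14, 4.65 and 4.59 on the fresh arrays. The groups overlapped, and all 6 arrays were above background. Its fold change was -0.18, with a 95% interval of -0.61 to 0.24 and an adjusted p of 0.671 by limma. Hlf (chr11:90336535-90390917), the other PAR bZIP member, was at 3.10, 3.61 and 3.16 on the cultured arrays, against 3.06, 3.12 and 3.47 on the fresh arrays. It was above background on 1 cultured and 1 fresh array, so a change in Hlf could not be measured well at this signal, and its fold change was 0.07 (95% interval -0.37 to 0.52, adjusted p 0.883 by limma). The sign for Hlf turned with array weights (-0.0179) and with cyclic loess (-0.0017).

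On the same arrays the Nfil3 and Tef fold changes differed by -3.63 ± 0.28 (SE) on the log2 scale. In an exact two-sided permutation test over the 6 arrays this difference had p = 0.1, the smallest value that 3 against 3 arrays allow, and 0.1 after adjustment over the 3 pairs compared. The 3 pairs were chosen after the values were seen, so these tests add no support to the differences. The other pairs were Nfil3 with Hlf and Bhlhe40 with Bhlhe41, each with an exact permutation p = 0.1, and no size is given for them because Hlf, and Bhlhe40 in culture, were not measured well above background. The third PAR bZIP gene, Dbp, which is not among the 7, averaged 3.86 ± 0.17 in cultured cells and 4.88 ± 0.28 in fresh cells (SD, n = 3 each). Dbp had a log2 fold change of -1.02 (adjusted p 0.0196, limma). Its call was lost when cultured replicate 2 or 3 or fresh replicate 2 or 3 was left out, where the adjusted p reached 0.0948.

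Bhlhe40 (chr6:108660629-108666925), the E-box repressor, was at 3.01, 3.33 and 3.15 on the cultured arrays, against 4.82, 5.23 and 5.12 on the fresh arrays. All 3 cultured values lay below the background of their own array, and all 3 fresh values above it. The measured log2 fold change of Bhlhe40 was -1.89 ± 0.16 (SE; adjusted p 0.000633, limma). Since the cultured level is only a bound, Bhlhe40 was at least 3.38-fold lower in cultured cells, with the background of each cultured array in place of its value. Its paralog Bhlhe41 (chr6:145858243-145865420) was at 3.58, 3.22 and 3.37 on the cultured arrays, against 3.30, 3.64 and 3.22 on the fresh arrays. These values overlapped and lay above background on 2 arrays of each group, with a fold change of -0.00046 (95% interval -0.39 to 0.39, adjusted p 0.9995 by limma).

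Rora (chr9:68653404-69388246), the nuclear receptor, was at 3.33, 3.20 and 3.47 on the cultured arrays, against 4.74, 5.93 and 5.67 on the fresh arrays. Cultured replicates 1 and 3 were just above background and cultured replicate 2 below it, and fresh replicate 1 was the lowest of the fresh arrays. The measured log2 fold change of Rora was -2.12 ± 0.29 (SE), 4.33-fold lower (adjusted p 0.00642, limma). With the cultured level this near background, the size of the Rora fall is uncertain. Ciart (chr3:95878500-95882257), the repressor of CLOCK and BMAL1, was at 2.62, 3.05 and 3.43 on the cultured arrays, against 3.38, 2.98 and 2.34 on the fresh arrays. Ciart was above background on 1 array of each group, with a fold change of 0.13 (95% interval -0.56 to 0.83, adjusted p 0.866 by limma), and its other probe set was within background on all 6 arrays at 0.07.

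For the 4 members that did not pass, the 95% intervals of the fold change lay between -0.61 and 0.83, inside a 2-fold change either way on this scale. Hlf, Bhlhe41 and Ciart lay at or near background, so these intervals describe the array values. A change in these low transcripts that stayed near background was not detectable.

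**Figure D2:**
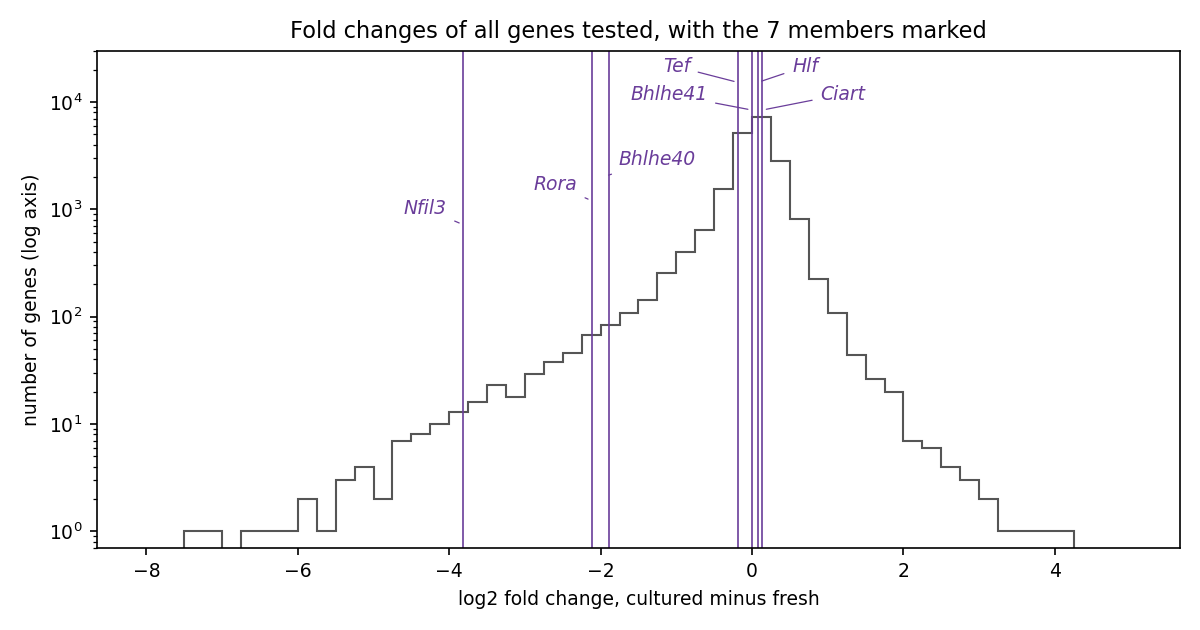
Number of genes (vertical log axis) by log2 fold change, cultured minus fresh, in bins over all 19938 genes, with a line at the value of each member. Nfil3 at -3.82, Rora at -2.12 and Bhlhe40 at -1.89 stand in the lower tail, and the other 4 members lie at the centre between -0.18 and 0.13.

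Taken array by array, Nfil3 lay below its fresh mean by differences of -4.08, -3.76 and -3.60 on cultured replicates 1, 2 and 3. The differences of Bhlhe40 were -2.05, -1.73 and -1.90, and those of Rora -2.12, -2.25 and -1.98. After quantile normalization the fold changes were -3.31 for Nfil3, -1.83 for Bhlhe40 and -2.03 for Rora, and all 3 passed.

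Single arrays did not decide these calls. With each array left out in turn, Nfil3 stayed between -3.92 and -3.68, Bhlhe40 between -2.01 and -1.81 and Rora between -2.47 and -1.88, at adjusted p of up to 0.000443, 0.00731 and 0.0409 by limma. The widest range was that of Rora, at -2.47 without fresh replicate 1 and -1.88 without fresh replicate 2. Fresh replicate 1, the lowest fresh array for Rora, Bhlhe40, Tef and Hlf, also carried the highest mean level of the 6 tendon cell markers, 4.87, against 3.66 and 3.32 on fresh replicates 2 and 3 and 3.73 to 3.85 on the cultured arrays. Of these markers, Tnmd, Thbs4 and Fmod were at 4.86, 6.11 and 6.08 on fresh replicate 1, against 2.57, 3.89 and 3.35 on fresh replicate 2. Scx, Mkx and Comp differed little between the same arrays, at 5.26, 2.92 and 4.02 against 5.23, 2.89 and 4.05. The part of tendon cells in the Rora values was not tested, and Rora passed without fresh replicate 1.

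**Figure D3:**
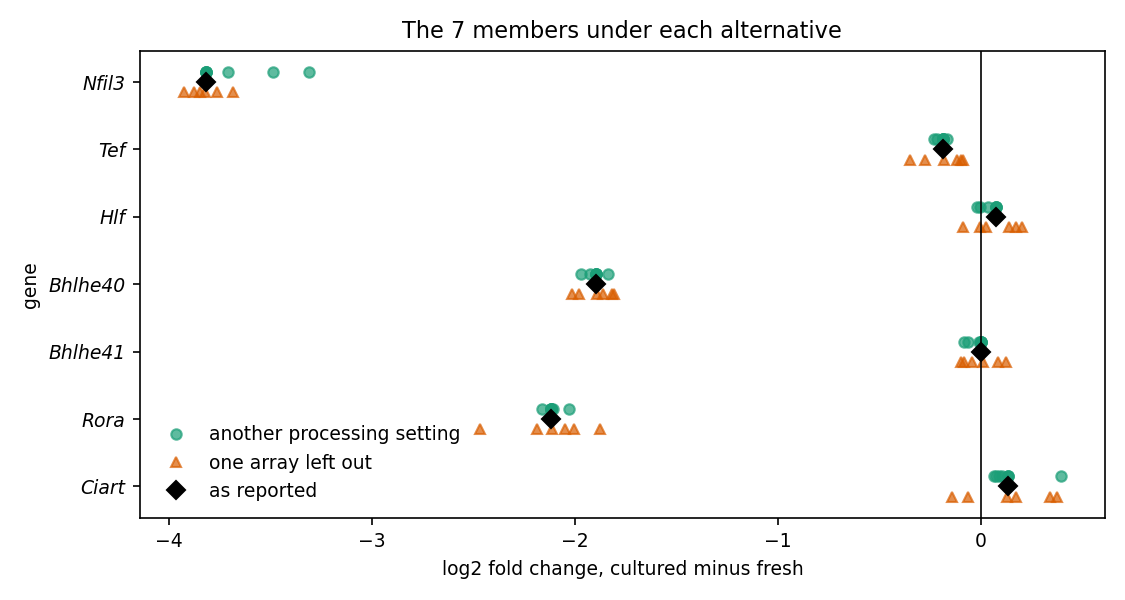
Log2 fold change (horizontal axis) of each member as reported (diamonds), under other processing settings (circles) and with 1 array left out (triangles). Nfil3, Rora and Bhlhe40 stay below -1.80 under every alternative shown, and Hlf, Bhlhe41 and Ciart fall on both sides of 0.

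The core of the clock was described from a list of 17 genes, 14 of them measured. Of the 14, 6 fell and none rose, and the list median was -0.54 against 0.04 for all genes. Nr1d1, which represses at the elements where Rora activates, averaged 4.57 ± 0.38 in cultured cells and 7.89 ± 0.19 in fresh cells (SD, n = 3 each), a log2 fold change of -3.33 (adjusted p 0.000119, limma). Its relative Nr1d2 fell by 1.86 and the light- and hormone-responsive repressor gene Per1 by 1.64, with adjusted p of 0.00677 and 0.000606. The activator gene Arntl fell by 1.01 and the kinase gene Csnk1d by 1.07, at adjusted p of 0.0287 and 0.0137. Arntl lost its call when any array but cultured replicate 1 was left out, with adjusted p reaching 0.121. Csnk1d lost its call when cultured replicate 3 or fresh replicate 2 or 3 was left out, with adjusted p reaching 0.0718. Without cultured replicate 3, fresh replicate 2 or fresh replicate 3 the count of the list fell to 3, and without cultured replicate 2 it was 4.

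The remaining clock genes did not pass. Clock was at -0.45, with a 95% interval of -0.89 to -0.01 and an adjusted p of 0.272, and Cry1 at -0.63 (-1.16 to -0.11) with 0.192. Cry2 was at -0.39, Per2 at -0.17, Csnk1e at -0.13, Rorb at 0.08, Per3 at 0.13 and Cipc, a partner of CLOCK that inhibits it, at 0.27. Rorb was below background on all 6 arrays, and Per3 on all but cultured replicate 3. The activator gene Rora and the repressor genes Nr1d1 and Nr1d2, which share the ROR elements, were all lower on every cultured array than on any fresh array.

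**Figure D4:**
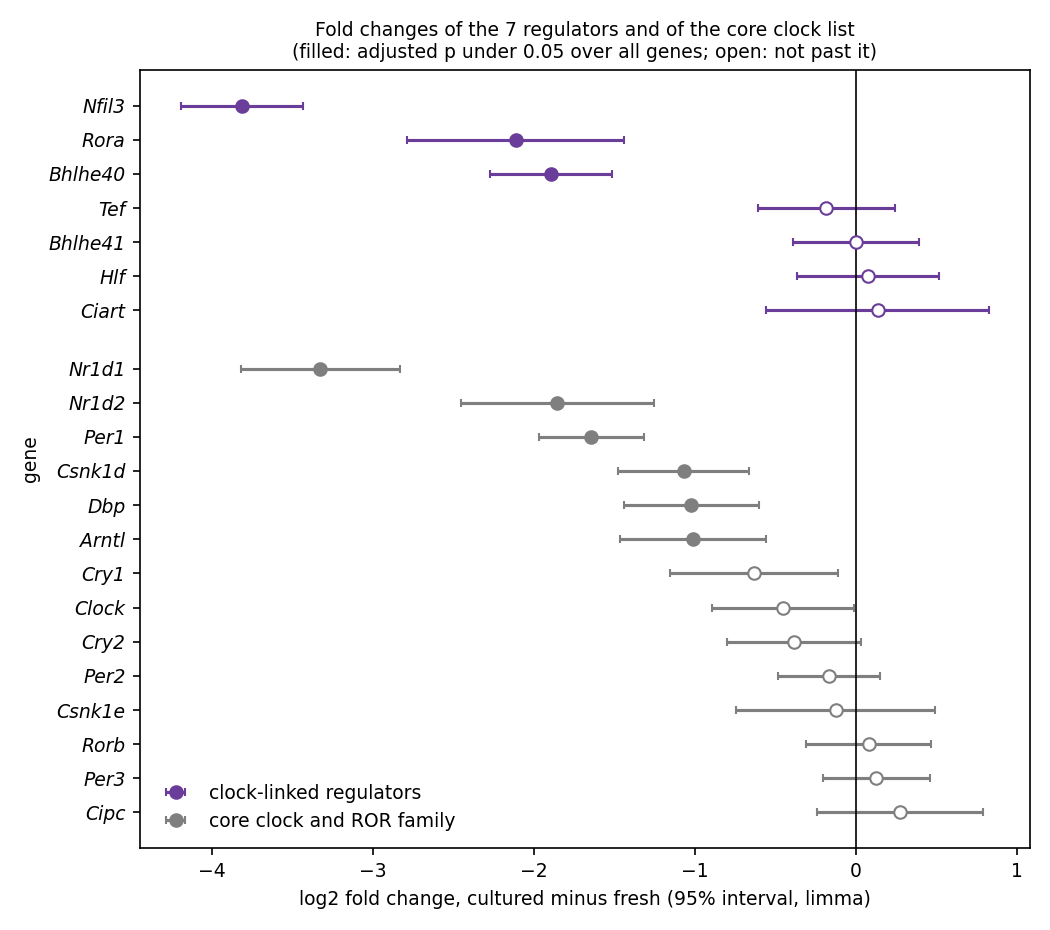
Log2 fold change, cultured minus fresh, with the 95% interval from limma for the 7 members (upper block) and the 14 measured core clock genes (lower block); filled points passed an adjusted p of 0.05 over all genes. Nfil3, Rora and Bhlhe40 passed, as did Nr1d1, Nr1d2, Per1, Csnk1d, Dbp and Arntl, all downward.

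Genes known as outputs of the clock fell in part. Of 18 measured genes of a list of 20, 6 fell and none rose, with a list median of -0.23. The sterol regulator Insig2 fell by 3.02 on the log2 scale, the glucocorticoid-induced factor Klf9 by 2.82, the coenzyme Q protein gene Coq10b by 2.39 and the pyruvate dehydrogenase kinase gene Pdk4 by 2.13, with adjusted p of 0.000372, 0.00514, 0.00370 and 0.0457 by limma. Pdk4 lost its call with a replicate block and when cultured replicate 2 or 3 or fresh replicate 2 or 3 was left out, with adjusted p reaching 0.183. Of the list, 4 genes fell without cultured replicate 3, without fresh replicate 2 and without fresh replicate 3. With array weights, cyclic loess, quantile normalization, a trended and robust prior or without cultured replicate 2, 1 gene of the list rose.

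Nfil3, Tef and Hlf belong to the wider class of bZIP factors. Of 11 C/EBP and related genes 7 fell and none rose, with a list median of -1.45. Cebpd, an acute phase regulator, fell by 3.75 on the log2 scale, the stress factor gene Ddit3 by 3.03, Cebpb, a regulator of satellite cell quiescence and of inflammation, by 2.96 and the amino acid stress regulator Atf4 by 1.87, at adjusted p of 2.81e-05, 0.000207, 4.48e-05 and 0.0100 by limma. Atf4 lost its call when cultured replicate 3 was left out (adjusted p 0.0542). Without that array 4 genes of the list fell.

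Since Bhlhe40 is known to respond to low oxygen, 16 genes of the hypoxia response were set beside it. Of these, 3 fell and 1 rose, with a list median of -0.23. With cyclic loess and after quantile normalization 3 fell and 3 rose, and the median after quantile normalization was -0.03. The collagen prolyl hydroxylase gene P4ha1 fell by 2.26 on the log2 scale, Ndrg1 by 2.20 and the histone demethylase gene Kdm3a, not above background on the cultured arrays, by a measured 1.06, while the oxygen sensor gene Egln3, not above background on the fresh arrays, rose by a measured 1.28, at adjusted p of 0.000661, 0.00112, 0.0105 and 0.0410 by limma. Egln3 lost its call with a replicate block and when cultured replicate 3 or a single fresh array was left out, with adjusted p reaching 0.149. Kdm3a lost its call when fresh replicate 2 or 3 was left out, with adjusted p reaching 0.0589. The other 12 did not pass in limma, with fold changes between -0.79 for P4ha2 (adjusted p 0.211) and 1.43 for the glycolytic gene Pgk1 (adjusted p 0.125).

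For each member above background by its group mean, the genes with the most similar profile were taken as those with the highest Pearson r over the 6 arrays among 10285 genes. With 2 groups of 3 arrays a high r mostly restates the difference between the groups, and arrays share their normalization, so these are descriptions. Nearest to Nfil3 were the bZIP stress factor gene Atf3 (r = 0.998), Cebpb (0.998) and the RNA-binding protein gene Bicc1 (0.998). Nearest to Bhlhe40 were the small GTPase gene Gem (0.999), the transporter gene Abca8b (0.998) and the phosphatase subunit gene Ppp1r15a (0.998). Rora stood nearest to the factor gene Klf13 (0.999), the epidermal growth factor receptor gene Egfr (0.999) and the urokinase gene Plau (0.998), and Klf13 itself moved by only -0.35 with an adjusted p of 0.192. Egfr shared the low fresh replicate 1, at 4.50, against 5.42 and 5.27 on fresh replicates 2 and 3, with 3.40, 3.31 and 3.62 on the cultured arrays. For Tef the nearest were Nr2c2 (0.994), Hipk1 (0.992) and Ppp6r1 (0.988), for Hlf they were Olfm2 (0.965), C2cd4c (0.951) and Aggf1 (0.945), and for Bhlhe41 they were Mlx (0.995), Rwdd1 (0.989) and Sertad2 (0.987), none of which passed the test. Ciart was within background by both means and was not compared.

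Other changes ran alongside the 3 falls. A list of 16 genes known to be switched on while tissue is dissociated, 15 of them measured, fell throughout, with 15 lower and a median of -4.35, and with mean levels of 4.32 to 4.36 on the cultured arrays against 8.87 to 9.12 on the fresh arrays. Of 9 measured fibro-adipogenic markers 5 fell, with a mean level of 3.67 to 3.77 on the cultured arrays against 5.44 to 5.84 on the fresh arrays. Among them Dcn and Dpt averaged 2.87 and 2.42 in cultured cells, below background on all 3 arrays, against 7.39 and 7.44 in fresh cells. Dcn varied between fresh replicates 1, 2 and 3, at 8.53, 7.78 and 5.86. The defining receptor Pdgfra was at 3.62 in cultured and 3.35 in fresh cells, and Col1a1 at 5.12 and 5.25. Lum was not above background on any array. Col3a1 fell, but lost its call with cyclic loess, quantile normalization and when cultured replicate 3 or fresh replicate 1 or 2 was left out (adjusted p up to 0.188, limma). The part of the dissociation genes and of fibro-adipogenic cells in the falls of Nfil3, Bhlhe40 and Rora was not tested.

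The labelled cell type was present by its markers. Pax7, Myf5 and Myod1 averaged 5.14, 5.13 and 8.77 in cultured cells against 6.47, 7.04 and 9.18 in fresh cells, above background on every array. Not all markers were kept in culture. Chodl averaged 2.49 in cultured cells, below background on all 3 arrays, against 8.39 in fresh cells. Calcr averaged 3.50 against 5.57 and was above background on 2 cultured arrays, and the sort marker Cxcr4 averaged 5.05 against 7.52. Of the 12 satellite cell markers 8 fell and none rose, or 5 without cultured replicate 3, fresh replicate 2 or fresh replicate 3, with a mean level of 4.89 to 5.53 on the cultured arrays against 6.78 to 7.24 on the fresh arrays. Of 9 T and NK cell markers none passed the test, with mean levels of 2.65 to 2.78 on the cultured arrays against 2.61 to 2.77 on the fresh arrays. Cd3e was above background on all 6 arrays (mean 3.74 in cultured and 3.72 in fresh cells) and Cd8a on 2 cultured arrays and 1 fresh array, while the other 7 were below it on all 6. Of 10 macrophage and myeloid markers none passed, with mean levels of 2.63 to 2.71 on the cultured arrays against 2.58 to 2.92 on the fresh arrays. Cd68 and S100a9 were above background on 1 cultured array and all 3 fresh arrays and Cd14 on 2 fresh arrays, while the other 7, with the leukocyte gene Ptprc, were below it on all 6. Of 10 mast cell and basophil markers 2 rose, Mcpt8 and Milr1. Gata2 was above background on all 6 arrays and did not pass (log2 fold change 0.69, adjusted p 0.0504 by limma), though its groups did not overlap. Tpsb2 was above background on 5 arrays and Hdc on 2 fresh arrays, and Cpa3, Fcer1a, Ms4a2, Kit and Mcpt4 were below it on all 6. Of the other marker lists, 1 of 7 endothelial genes and 1 of 8 myofibre genes fell, and none of the measured tendon, smooth muscle, B cell, Schwann or erythroid genes passed. Not passing does not mean absent. Of 7 smooth muscle genes 5 were above background on at least 2 cultured arrays and 3 on at least 2 fresh arrays. Acta2 averaged 7.65 in cultured and 6.77 in fresh cells. Of the 7 endothelial genes 1 was above background on at least 2 cultured arrays and 2 on at least 2 fresh arrays.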

How the data were processed

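RNA of sorted mouse satellite cells was labelled with the Affymetrix WT Terminal Labeling kit, per the labels' protocols. The deposited values are log2 expression of 35556 probe sets, made with RMA and oligo per the submitters' processing notes, with no version stated. The sources used here give neither build nor batches. Array medians lay between 3.10 and 3.15 and maxima between 14.7 and 15.2. The 65 genes brightest in fresh cells (mean of 11 to 20) were lower in culture by unequal amounts. They were chosen by fresh level alone, which favours lower values in culture, so only the inequality between the cultured arrays is described. Their median differences from the fresh mean were -0.31, -3.33 and -2.84 on cultured replicates 1, 2 and 3. For the 4340 genes with a fresh mean of 4 to 6, these medians were 0.11, -0.21 and -0.03. The cause was not tested.

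Probe sets were named by platform annotation, with symbols from GRCm38.p6 by gene ID where held: 21789 had 1 gene, 1621 several and 12146 none listed. Cultured and fresh arrays were compared with limma 3.58.1 in R 4.3.3 (lmFit, eBayes, group as only term, Benjamini-Hochberg over 19938 genes). The 7 members and all gene lists were chosen with earlier results of these data known. The rule for named genes was all members, the core clock list, up to 4 called genes of each other pathway list by absolute fold change, and the 3 most similar profiles of each member; P4ha2, Pgk1 and the markers named individually were added after their values were seen. The pair tests and 3 pairs were also chosen afterwards. On simulated data of 19938 genes with the same 2 groups, genes were changed by 1, 2, 3 and 4 (log2), 50 at each size. Of these, 28, 39, 47 and 49 were recovered, with 6 false calls. The simulated noise was independent between genes and arrays. It lacked the unequal differences of the real cultured arrays for genes bright in fresh cells. These counts therefore do not give the error rate of the real comparison. Alternatives were a replicate block, other priors, array weights, 2 further normalizations, a filter on dim genes, other probe set rules and leaving out each array. The number of arrays limits the precision.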

Additional observations from a re-analysis of the deposited data

How the results depend on the processing

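The members past the test numbered 3 under all 13 alternatives that gave this count, and Nfil3, Bhlhe40, Rora and Tef kept their direction and side of the threshold in all 14 of theirs. The filter on dim genes left out Hlf and Ciart. Hlf changed sign with array weights (-0.0179) and cyclic loess (-0.0017), and leaving out single arrays gave -0.0870 to 0.20 for Hlf, -0.10 to 0.13 for Bhlhe41 and -0.14 to 0.37 for Ciart, none of them past the threshold. Over all genes 861 passed, against 1742 with array weights, 1515 with cyclic loess and 1595 after quantile normalization, and 448 to 1517 with 1 array left out: 1517 without cultured replicate 1, 448 without cultured replicate 3, 478 without fresh replicate 2 and 471 without fresh replicate 3. The share of calls that were higher was 22.1%, against 33.6%, 32.9% and 43.8% in those 3 settings, 15.3% with the replicate block, and 10.8% (without fresh replicate 3) to 34.7% (without cultured replicate 2) with 1 array left out; the cause was not tested. With the replicate block 662 genes passed and Nfil3, Bhlhe40 and Rora kept their calls, at adjusted p of 0.000583, 0.00321 and 0.0152. Same-numbered arrays share only a number: their deviations from the group means correlated at -0.09, -0.14 and 0.03 for numbers 1, 2 and 3, and no cultured array correlated best with its own number. Signal near background limits Hlf, Bhlhe41 and Ciart.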
